A study of Mus musculus with 30 samples.

Results

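The m6A peaks described here are those of 54 mouse genes that encode chromatin remodellers, histone acetyltransferases and deacetylases, and the enzymes of DNA methylation and demethylation. The genes were listed by symbol, a rule that uses no measured value although results of these data were known when the list was made, and each was matched to the Ensembl gene identifier that the peak lists give for a called bin. Of the 54 genes, 53 had a called bin in at least 1 list, out of 13765 genes with a bin in any list. The exception was Smarca2, an ATPase of the SWI/SNF complex. The study mapped N6-methyladenosine (m6A), the methylated adenosine found within messenger RNA, by sequencing RNA fragments pulled down with an antibody to m6A. It used 5 lines of mouse embryonic stem cells of the C57BL/6 strain, grown in serum with leukemia inhibitory factor on gelatin.

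The parental line (WT) has its own METTL14, and the knockout line (KO) lacks it. In the 3 other lines METTL14 was put back into the knockout in its wild-type form (the line KO+WT) or as a mutant named 5RK (KO+5RK) or 13RK (KO+13RK). The names are those of the labels, and the title of the series concerns arginine methylation in the disordered end of METTL14. The promoter that drives the added METTL14, its level and whether a line is 1 clone are not given in the sources used here. Each line has 3 immunoprecipitated libraries, each with 1 deposited peak list, so that 15 lists were compared. The labels do not say whether the 3 replicates are separate cultures, so the p-values below measure the spread between these libraries, which may be technical. A list holds bins of 100 nt that were called as enriched. Read depth is unknown, and a transcript without a call may still carry m6A. The input libraries were not used here, so the level of Mettl14 itself was not checked, and a bin cannot be called where the transcript is absent.

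METTL14 holds the RNA for the catalytic METTL3 in the writer complex that places most m6A of messenger RNA, usually within long internal exons and near stop codons. The mark is read by proteins that shorten the life of a transcript or alter its use. The proteins encoded by the genes described here move nucleosomes, add or remove acetyl groups on histones, and set or erase DNA methylation, and embryonic stem cells need many of them to hold or leave the pluripotent state. Their transcripts are mostly long, and a long transcript can carry many bins.

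In WT the 54 genes had 286, 292 and 289 called bins per list. KO had 89, 111 and 109 bins, and no KO list reached a WT list. KO+WT had 217, 230 and 195 bins, above every KO list and below every WT list. KO+5RK had 145, 156 and 128 bins, which lay between KO+WT and KO without overlap. KO+13RK had 105, 98 and 114 bins, and these values overlapped those of the knockout. The mean of the WT lists was 289 ± 3 bins and that of the KO lists 103 ± 12.2 (SD, n = 3). With METTL14 put back, the KO+WT mean was 214 ± 17.7, the KO+5RK mean 143 ± 14.1 and the KO+13RK mean 105.7 ± 8.02. With 3 lists against 3, an exact permutation test cannot give a p below 0.1, so pairs of lines are described without a test. In RNA from bulk cultures, fewer cells with a mark and less of it per cell cannot be told apart.

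The lists differed in length, from 6328 to 23164 bins, and the share of a list taken by these genes gave another order. Per 10000 bins of the list, WT lists held 127.5 ± 3.51 bins of the 54 genes, KO lists 133.2 ± 6.97 and KO+WT lists 141.2 ± 9.79 (SD, n = 3). The KO+5RK share was 116.3 ± 5.86 and the KO+13RK share 104.6 ± 2.84. From WT to KO the bins of the 54 genes were fewer by 64.4% and all bins by 65.7%, close to each other. From KO+WT to KO+5RK they were fewer by 33.2% against 19.1% for all bins, and from KO+WT to KO+13RK by 50.6% against 33.5%. Kat6b alone took a part of this, and without it the last 2 differences were 27.9% and 45.5%.

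**Figure D1:**
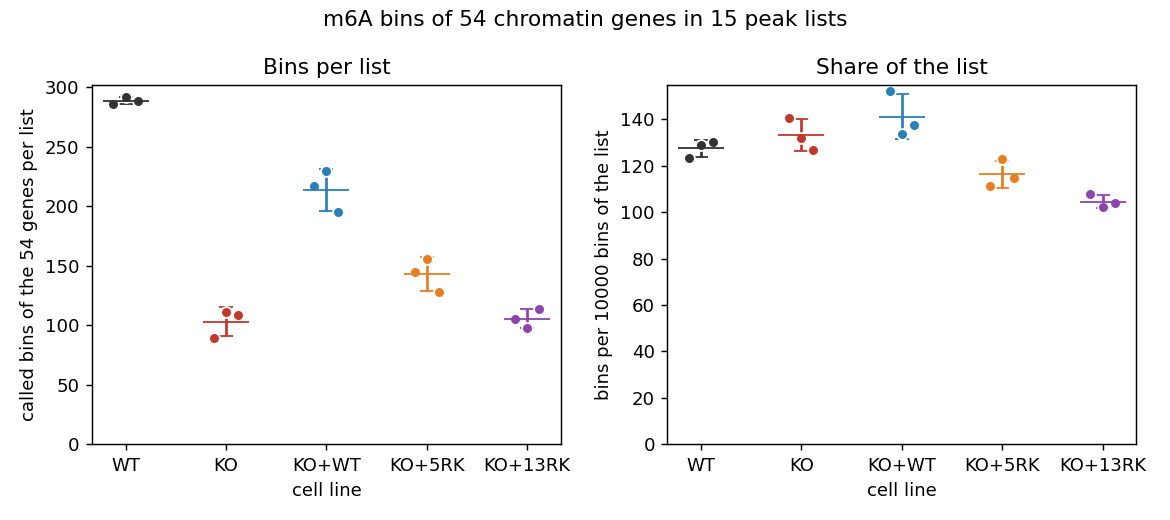
Called bins of the 54 genes in each of the 15 lists (left, bins per list) and per 10000 bins of the list (right), by cell line. Points are lists, the bar is the mean and the whiskers are 1 SD (n = 3). On the left KO+13RK (98 to 114 bins) overlaps KO (89 to 111), and on the right KO+13RK has the lowest mean, 104.6.

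The genes carried more bins each than most genes. A member with a bin had 6.15 ± 0.231 bins per WT list and 2.75 ± 0.12 per KO list (SD, n = 3), against 2.89 ± 0.0749 and 1.77 ± 0.0547 over all genes with a bin. Members with at least 1 bin numbered 47 ± 1.73 per WT list and 37.3 ± 2.89 per KO list. The KO+WT lists had 43.7 ± 3.21 such members, the KO+5RK lists 43 ± 1 and the KO+13RK lists 39 ± 1.73. Both numbers were lower in the knockout, the bins per member by more. All 12 embryonic stem cell markers looked at had a bin in some list. Of 12 fibroblast markers 5 had one, with 24 to 31 bins in the WT lists and 0 to 6 in the lists of the other lines. Nearly all were in Fn1, which encodes fibronectin, with 30, 23 and 23 bins in WT and 0 to 3 in the other lists. Col1a1, Vim and Thy1 had 0 to 2 bins in any list, Fbn1 had 1, 1 and 2 in KO and none elsewhere, and Col1a2, Col3a1, Lum and Dcn had none in any list. The part of such cells in the differences between WT and the other lines was not tested.

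Not every bin that carries a member's identifier lay in that gene. Over the 15 lists, 229 of the 2564 member bins (8.93%) were outside the RefSeq span of their gene, against 4.47% for all genes. Trim28, which encodes the corepressor KAP1, had 146 of its 218 bins outside, up to 19537 nt upstream and within the span of Zbtb45, a gene on the opposite strand. Chd1, a remodeller that keeps chromatin open in embryonic stem cells, had 65 of its 107 bins outside, up to 1617455 nt downstream and over 9 other RefSeq genes. Such bins carry the strand of the member, and which transcript they came from was not tested. With bins inside the gene span alone, WT lists had 262.3 ± 2.31 bins of the 54 genes, KO lists 98 ± 10.4 and KO+WT lists 194 ± 13.2 (SD, n = 3). KO+5RK lists then had 127.3 ± 10.8 and KO+13RK lists 96.7 ± 8.02, just under KO. Of the bins of Srcap, an ATPase that loads the histone variant H2A.Z, 96.4% were also listed under Gm42715 on the same strand, and 38.0% of those of Chd8 overlapped bins of Gm26590 on the opposite strand, so the values of these genes are uncertain.

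The families are compared here by the bins they kept, relative to WT. Over all bins, the KO lists kept 34.3%, the KO+WT lists 67.0%, the KO+5RK lists 54.2% and the KO+13RK lists 44.5%, so that a family above these values is higher on the scale of list shares and one below is lower. In KO the 8 CHD remodellers kept 21.2%, the 3 TET demethylases 24.3% and the 8 remodellers of the ISWI, INO80 and related families 25.2%. The 9 acetyltransferases kept 40.8% and the 7 deacetylases 52.5%, but a single gene decided on which side of all bins these 2 families lay. Without Kat6b the acetyltransferases kept 33.0%, from 35.3 ± 4.04 bins in WT to 11.7 ± 2.52 in KO (SD, n = 3). Without Hdac6 the deacetylases kept 29.1%, from 18.3 ± 1.53 bins to 5.33 ± 1.15 (SD, n = 3). The 12 SWI/SNF subunits had 41.3 ± 2.08 bins in WT and 20.7 ± 4.04 in KO (SD, n = 3), above the share kept over all bins. The 5 DNA methylation genes kept 84.4% of few bins, from 10.7 ± 1.53 in WT to 9 ± 2.65 in KO (SD, n = 3). In KO+13RK the CHD genes kept 20.2% and the acetyltransferases 30.4%, both under the 44.5% of all bins. Without Kat6b the acetyltransferases kept 45.3% there, just above it, while no single gene moved the CHD family across the value of all bins in KO or KO+13RK.

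**Figure D2:**
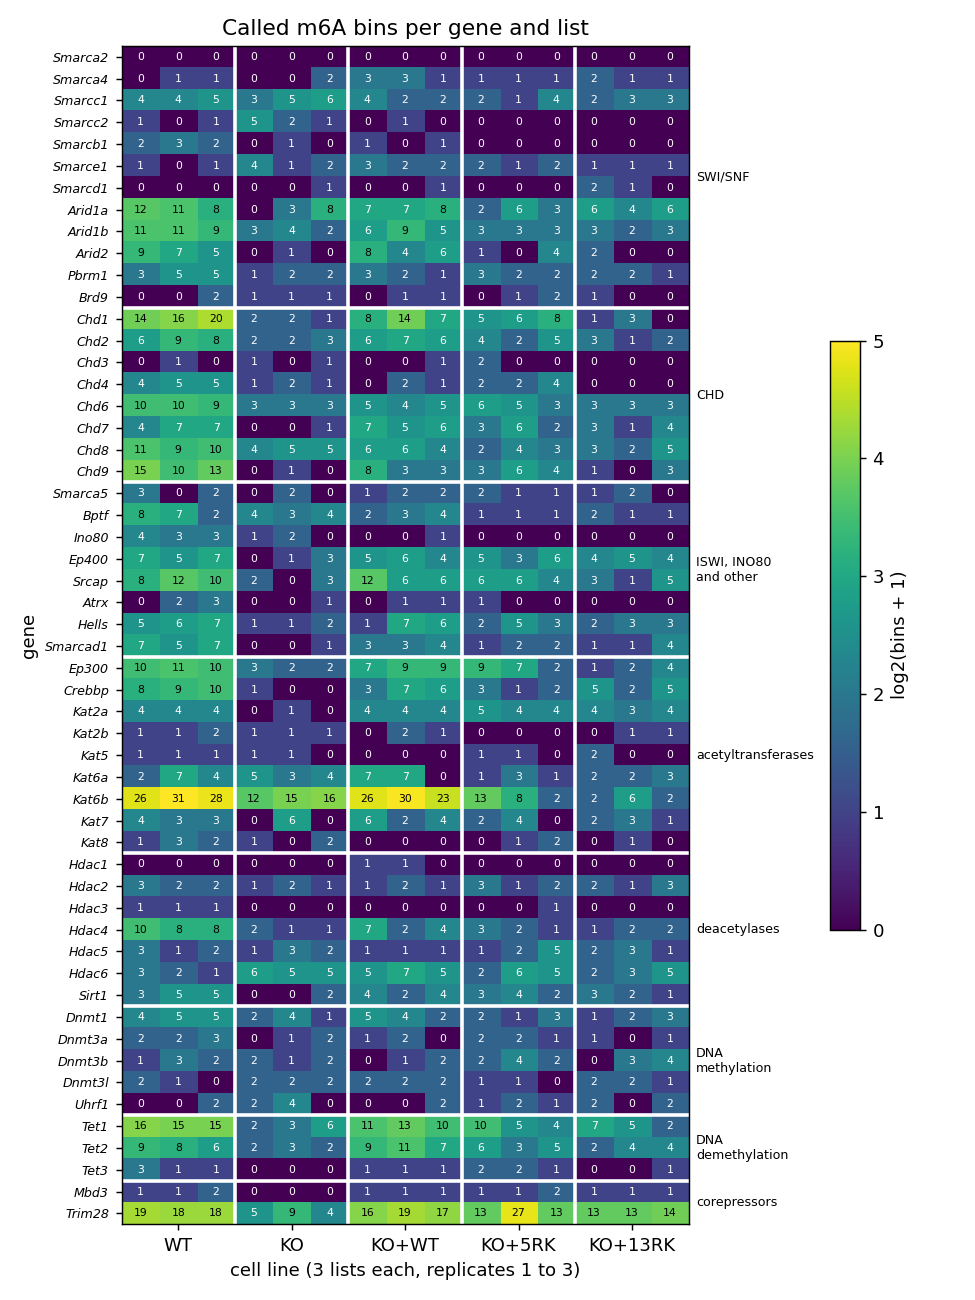
Called bins of each of the 54 genes in each of the 15 lists, with genes in rows by family and lists in columns by cell line. Numbers are bins per list and the colour is log2(bins + 1). Kat6b has the most bins in all 9 lists of WT, KO and KO+WT, and Smarca2 has none.

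Among the SWI/SNF genes, the DNA-binding subunits carried most bins. Arid1a, the signature subunit of the BAF form, had 12, 11 and 8 bins in WT, 0, 3 and 8 in KO, 7, 7 and 8 in KO+WT, 2, 6 and 3 in KO+5RK and 6, 4 and 6 in KO+13RK. The KO lists spread so far that they overlapped every other line, while both mutants stayed under every KO+WT list. Arid1b, its paralog, had 11, 11 and 9 bins in WT, 3, 4 and 2 in KO, 6, 9 and 5 in KO+WT, 3, 3 and 3 in KO+5RK and 3, 2 and 3 in KO+13RK. Here KO and both mutants lay below every WT and KO+WT list. Pbrm1, the polybromo subunit of the PBAF form, had 3, 5 and 5 bins in WT, 1, 2 and 2 in KO, 3, 2 and 1 in KO+WT, 3, 2 and 2 in KO+5RK and 2, 2 and 1 in KO+13RK. Smarca4, the main ATPase in these cells, had 0 to 3 bins in every list and did not separate the lines.

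Other SWI/SNF subunits went different ways. Smarcb1, a core subunit, had 2, 3 and 2 bins in WT, 0, 1 and 0 in KO, 1, 0 and 1 in KO+WT and none in either mutant. Smarcc2, a scaffold subunit, had 5, 2 and 1 bins in KO, 1, 0 and 1 in WT, 0, 1 and 0 in KO+WT and none in either mutant. Arid2, a second DNA-binding subunit of the PBAF form, had 9, 7 and 5 bins in WT, 8, 4 and 6 in KO+WT, 0, 1 and 0 in KO, 1, 0 and 4 in KO+5RK and 2, 0 and 0 in KO+13RK. Its KO and KO+13RK lists were below every KO+WT list, and KO+5RK reached the lowest of them. These 3 genes were singled out after their values were seen.

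The CHD genes had the highest mean of any family in WT as listed, 67.7 ± 4.04 bins per list (SD, n = 3), and 14.3 ± 1.15 in KO. The acetyltransferases had 63.7 ± 6.51 in WT, and the WT lists of the 2 families overlapped (64 to 72 and 57 to 70). The CHD bins include those of Chd1 outside its gene, a mean of 11.3 in WT, and the order of the 2 families rests on them. Chd2, which is needed for histone H3.3 deposition, had 6, 9 and 8 bins in WT, 2, 2 and 3 in KO, 6, 7 and 6 in KO+WT, 4, 2 and 5 in KO+5RK and 3, 1 and 2 in KO+13RK. Every list of KO and of both mutants was below every list of WT and KO+WT. Chd9 had 15, 10 and 13 bins in WT, 0, 1 and 0 in KO, 8, 3 and 3 in KO+WT, 3, 6 and 4 in KO+5RK and 1, 0 and 3 in KO+13RK. KO held almost none of its bins, and the lists of the 3 lines with added METTL14 overlapped one another.

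Chd8, mutated in a form of autism, had 11, 9 and 10 bins in WT, 4, 5 and 5 in KO, 6, 6 and 4 in KO+WT, 2, 4 and 3 in KO+5RK and 3, 2 and 5 in KO+13RK. Chd4, the ATPase of the NuRD complex, had 4, 5 and 5 bins in WT, 1, 2 and 1 in KO, 0, 2 and 1 in KO+WT, 2, 2 and 4 in KO+5RK and none in KO+13RK. The KO+WT lists of Chd4 overlapped those of KO and lay below every WT list. Chd1 had 14, 16 and 20 bins in WT, 2, 2 and 1 in KO, 8, 14 and 7 in KO+WT, 5, 6 and 8 in KO+5RK and 1, 3 and 0 in KO+13RK. Inside its own span, Chd1 had 5, 4 and 7 bins in WT, 2, 1 and 1 in KO, 3, 5 and 3 in KO+WT, 2, 3 and 3 in KO+5RK and 1, 2 and 0 in KO+13RK.

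Of the other remodellers, Ep400, the ATPase of the TIP60 complex, had 7, 5 and 7 bins in WT, 0, 1 and 3 in KO, 5, 6 and 4 in KO+WT, 5, 3 and 6 in KO+5RK and 4, 5 and 4 in KO+13RK. KO was low and the 3 lines with added METTL14 overlapped one another. Smarcad1, which helps to restore repressive chromatin after replication, had 7, 5 and 7 bins in WT, 0, 0 and 1 in KO, 3, 3 and 4 in KO+WT, 1, 2 and 2 in KO+5RK and 1, 1 and 4 in KO+13RK. Ino80, singled out after its values were seen, had 4, 3 and 3 bins in WT, 1, 2 and 0 in KO, 0, 0 and 1 in KO+WT and none in either mutant.

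Kat6b, the acetyltransferase of histone H3 also known as MORF, carried more bins than any other member in WT, KO and KO+WT. It had 26, 31 and 28 bins in WT, 12, 15 and 16 in KO and 26, 30 and 23 in KO+WT. KO+5RK had 13, 8 and 2 bins and KO+13RK had 2, 6 and 2. Both mutants lay below every KO+WT list, and every KO+13RK list lay below every KO list. KO was lower than WT on the scale of bins per list, but its mean minus that of the 12 other lists turned from -2.08 bins to 8.67 per 10000 bins.

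The bins of Kat6b fell into 3 stretches of at least 3 regions, chosen here after the values were seen as runs with gaps under 500 nt. The first stretch of 7 regions (build GRCm38, chr14:21516735-21517534) began 17519 nt after the gene start. It had 7 bins in each WT list, 6 in each KO+WT list, none in KO, 1, 2 and 0 in KO+5RK and none in KO+13RK. The second, of 3 regions (chr14:21662135-21662534), went the other way, with 1, 1 and 2 bins in KO, 0, 1 and 0 in KO+WT and none in WT or either mutant. The third, of 22 regions (chr14:21668335-21671034), lay 1444 to 4044 nt before the gene end. It had 19, 21 and 20 bins in WT, 9, 11 and 10 in KO, 20, 20 and 17 in KO+WT, 12, 6 and 2 in KO+5RK and 2, 6 and 2 in KO+13RK. In KO the calls of the third stretch were those farther from the gene end. Of 8 Kat6b regions called in all 9 lists of WT, KO and KO+WT, 5 were in no KO+13RK list, against 32 of 793 such regions (4.04%) over all genes. Which exons the stretches lie in was not analysed here.

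**Figure D3:**
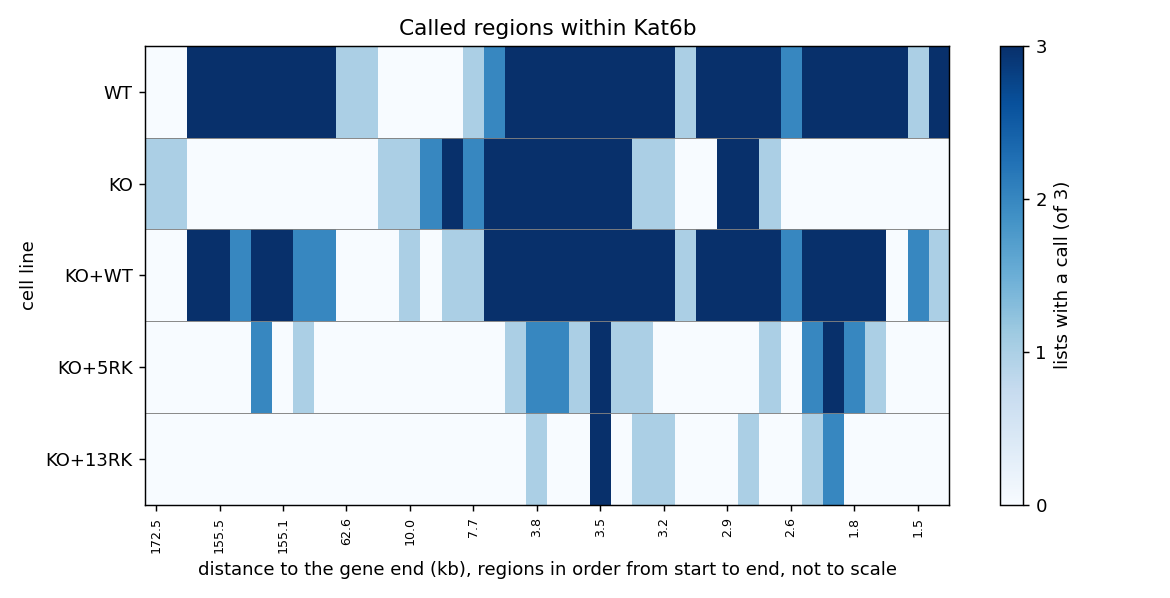
Called regions within Kat6b, in order from gene start to gene end (horizontal axis, labelled by distance to the gene end in kb and not to scale), by cell line. The colour is the number of lists with a call, from 0 to 3. The stretch 154944 to 155644 nt from the end is empty in KO and KO+13RK, and the stretch near the end is partly called in KO and sparse in both mutants.

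The paired coactivators Ep300 and Crebbp acetylate histone H3 at enhancers. Ep300 had 10, 11 and 10 bins in WT, 3, 2 and 2 in KO, 7, 9 and 9 in KO+WT, 9, 7 and 2 in KO+5RK and 1, 2 and 4 in KO+13RK. Crebbp had 8, 9 and 10 bins in WT, 1, 0 and 0 in KO, 3, 7 and 6 in KO+WT, 3, 1 and 2 in KO+5RK and 5, 2 and 5 in KO+13RK. Ep300 in KO+13RK lay below every KO+WT list, and Crebbp in both mutants overlapped KO+WT. Kat2a, the GCN5 acetyltransferase of the SAGA complex, had 4 bins in all WT and KO+WT lists, 5, 4 and 4 in KO+5RK, 4, 3 and 4 in KO+13RK, and 0, 1 and 0 in KO. It was thus low in KO alone and did not separate the mutants from the wild-type rescue.

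Bins at the first transcribed bases were counted for the members only, with no share over all genes to set beside them. A bin overlapped the first 50 bases of 7 member genes, of 45 with a start sequence, and only Kat8, a histone H4 acetyltransferase, had one in more than 2 lists. Its bin was called in 3 WT lists, 2 KO lists, no KO+WT list, 2 KO+5RK lists and 1 KO+13RK list. Ep300 had such a bin in 1 WT and 1 KO+WT list, and Trim28 in 1 WT list. Sirt1, Smarcb1, Smarcc2 and Kat2a each had one in 1 KO list and in no other. Kat8 was singled out after its values were seen. The sequences of all 7 starts are shown because a bin reaches into their first 50 bases, with 30 bases before the start in lower case and the first 30 transcribed bases in capitals (RefSeq, GRCm38.p6, chr7:127912487-127912546 for Kat8, chr15:81586184-81586243 for Ep300, chr7:13024122-13024181 for Trim28 and chr10:128459206-128459265 for Smarcc2 on the plus strand, and chr10:63339006-63339065 for Sirt1, chr10:75921585-75921644 for Smarcb1 and chr11:100712438-100712497 for Kat2a on the minus strand).

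Kat8: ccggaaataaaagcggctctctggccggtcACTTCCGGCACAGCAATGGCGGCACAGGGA

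Ep300: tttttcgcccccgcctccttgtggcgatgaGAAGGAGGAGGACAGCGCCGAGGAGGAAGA

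Trim28: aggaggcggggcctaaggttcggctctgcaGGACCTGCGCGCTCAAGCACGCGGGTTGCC

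Sirt1: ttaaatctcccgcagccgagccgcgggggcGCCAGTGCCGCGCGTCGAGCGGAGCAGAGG

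Smarcb1: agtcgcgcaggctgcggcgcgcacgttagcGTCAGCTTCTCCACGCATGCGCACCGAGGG

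Smarcc2: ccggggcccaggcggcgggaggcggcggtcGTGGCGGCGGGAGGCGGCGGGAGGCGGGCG

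Kat2a: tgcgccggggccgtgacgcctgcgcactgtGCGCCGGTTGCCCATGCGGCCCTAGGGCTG

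Kat8 starts with an A and the 6 others with a G. An A stood at 18.0% of the 61 member starts and 34.4% of all 32851 starts. The letters GGAC, a frequent core of m6A sites, were searched for on the transcribed strand in the first 50 bases. They occur in Ep300 and Trim28 and not in the 5 others, in 11.5% of member starts and in 18.9% of all starts. A match is a description of the letters and not a mapped site.

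Deacetylase transcripts carried few bins, with 20.3 ± 2.31 per list in WT and 10.7 ± 0.577 in KO (SD, n = 3). Hdac1, a catalytic subunit of the NuRD and Sin3 complexes, had 1 bin in 2 of the KO+WT lists and none elsewhere. Hdac3, the catalytic subunit of the NCoR complex, had 1 bin in each WT list and 1 in a single KO+5RK list. Sirt1, an NAD-dependent deacetylase, had 3, 5 and 5 bins in WT, 0, 0 and 2 in KO, 4, 2 and 4 in KO+WT, 3, 4 and 2 in KO+5RK and 3, 2 and 1 in KO+13RK.

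Hdac6, a mostly cytoplasmic deacetylase of tubulin, was the only member with more bins in every KO list than in every WT list. It had 3, 2 and 1 bins in WT, 6, 5 and 5 in KO, 5, 7 and 5 in KO+WT, 2, 6 and 5 in KO+5RK and 2, 3 and 5 in KO+13RK. Its bins lay mostly in a stretch 227 to 1027 nt after the gene start and another 1305 to 1505 nt before the end. The stretch after the start had 1, 0 and 0 bins in WT, 5 in each KO list, 4, 5 and 3 in KO+WT, 2, 4 and 4 in KO+5RK and 2, 3 and 4 in KO+13RK. All 4 lines derived from the knockout were above WT there. The stretch before the end had 2, 2 and 1 bins in WT, none in KO, 1, 2 and 2 in KO+WT, 0, 2 and 1 in KO+5RK and none in KO+13RK. Hdac6 was singled out after its values were seen.

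The DNA methyltransferase transcripts did not separate KO from WT. Dnmt1, which copies methylation after replication, had 4, 5 and 5 bins in WT, 2, 4 and 1 in KO, 5, 4 and 2 in KO+WT, 2, 1 and 3 in KO+5RK and 1, 2 and 3 in KO+13RK. Every list of both mutants was below every WT list of Dnmt1, and both mutants overlapped KO+WT. Dnmt3a and Dnmt3b, which set new methylation, had 0 to 3 and 0 to 4 bins per list. Uhrf1, which brings Dnmt1 to replicated DNA, had 0, 0 and 2 bins in WT, 2, 4 and 0 in KO and 0 to 2 in the other lists. KO overlapped WT for all 4 of these genes.

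The TET enzymes, which oxidise methylated cytosine, carried more. Tet1 had 16, 15 and 15 bins in WT, 2, 3 and 6 in KO, 11, 13 and 10 in KO+WT, 10, 5 and 4 in KO+5RK and 7, 5 and 2 in KO+13RK. Tet2 had 9, 8 and 6 bins in WT, 2, 3 and 2 in KO, 9, 11 and 7 in KO+WT, 6, 3 and 5 in KO+5RK and 2, 4 and 4 in KO+13RK. For both genes every KO and every KO+13RK list was below every KO+WT list, and for Tet2 every KO+5RK list as well. Tet3 had 3, 1 and 1 bins in WT, none in KO, 1 in each KO+WT list, 2, 2 and 1 in KO+5RK and 0, 0 and 1 in KO+13RK. By the same rule as in Kat6b, and chosen after the values were seen, Tet1 had 4 stretches. The one of 5 regions, 8301 to 8801 nt before the gene end, had 4, 4 and 5 bins in WT, none in KO, 5, 4 and 3 in KO+WT, 3, 2 and 2 in KO+5RK and 1, 2 and 1 in KO+13RK. The one 33601 to 34501 nt before the end had 4 bins in each WT list, 1, 2 and 3 in KO, 3, 3 and 2 in KO+WT, 3, 1 and 1 in KO+5RK and 3, 2 and 1 in KO+13RK. There KO and both mutants overlapped KO+WT. The stretches 35201 to 35701 and 73601 to 75001 nt before the end had means of 3.33 bins each in WT, 0.333 each in KO, 1.33 and 2.67 in KO+WT, 0.667 and 1.33 in KO+5RK and 0.333 and 0.667 in KO+13RK.

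Mbd3, a NuRD subunit that restrains pluripotency genes, had 1, 1 and 2 bins in WT, none in KO, 1 in each KO+WT and KO+13RK list and 1, 1 and 2 in KO+5RK. Trim28 had 19, 18 and 18 bins in WT, 5, 9 and 4 in KO, 16, 19 and 17 in KO+WT, 13, 27 and 13 in KO+5RK and 13, 13 and 14 in KO+13RK. Inside its own span it had 4, 5 and 5 bins in WT, 3, 4 and 3 in KO, 3, 6 and 6 in KO+WT, 4, 10 and 5 in KO+5RK and 4, 5 and 5 in KO+13RK. Within the gene, KO overlapped WT and the 3 other lines, so the lower KO count of Trim28 lay mostly in the bins outside the gene, with a mean of 13.7 in WT and 2.67 in KO.

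The number of bins per gene was tested in KO against the 12 other lists with an exact permutation test, two-sided, over all 9852 genes with a bin in at least 3 lists. No member passed after Benjamini-Hochberg adjustment, of 52 tested, and no gene passed at all (percent called 0). The smallest adjusted p was 0.0565, shared by Kat2a, Mbd3 and Trim28, the last with most of its bins outside the gene. At an unadjusted p under 0.05, 11 members stood out (21.2%, against 15.3% of all genes), 10 with fewer bins in KO and Smarcc2 with more. Members have more bins than most genes, which lets this test reach a small p more often. Among the 698 genes with a mean of 3 to under 6 bins over the 15 lists, 6 of 18 members (33.3%) and 46.6% of genes had such a p. With 6 or more bins it was 1 of 5 members (20%) and 54.6% of genes, with 1 to under 3 bins 2 of 16 (12.5%) and 24.2%, and with under 1 bin 2 of 13 (15.4%) and 4.30%. In the 3 classes with 1 bin or more the members were therefore not above the background in this test. The 12 other lists include those of both mutants, in which many members were low too. The test thus does not measure the difference between WT and KO alone. Chd9, with a mean of 12.7 bins in WT and 0.333 in KO, had an unadjusted p of 0.0725 in it.

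On the scale of bins per 10000 bins of the list, which sets aside the shorter KO lists, the same permutation test called 4 members lower in KO (7.69%, against 4.02% of all genes). They were Kat2a, Mbd3, Crebbp and Chd7, with adjusted p of 0.0291 for the first pair and 0.0457 for the second. Kat2a had 0.396 ± 0.686 in KO and 2.89 ± 0.836 in the other lists (SD), and Crebbp 0.527 ± 0.912 and 3.25 ± 1.37. On this scale 7 members were called higher in KO (13.5%, against 5.60% of all genes), namely Smarcc1, Smarcc2, Bptf, Chd8, Hdac6, Kat2b and Dnmt3l. Neither the share called lower nor the share called higher allows for the larger number of bins per member. Smarcc1, a scaffold of the SWI/SNF complex singled out after its values were seen, had 5.89 ± 1.12 in KO and 2.08 ± 0.843 in the other lists. In bins per list Smarcc1 had 3, 5 and 6 in KO and 4, 4 and 5 in WT, which overlapped. The median difference over the 52 members was 0.167 per 10000 bins, and -0.16 over all genes. Of the 52, 23 were lower and 29 higher in KO on this scale, against 36 lower and 15 higher in bins per list, so the direction of the members as a group depended on the scale.

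Single regions, made by merging bins that overlap, were tested in KO against the 12 other lists by Fisher's exact test over 23941 regions called in at least 3 lists. Of 316 member regions, KO called 16 less often (5.06%, against 4.69% of all regions) and 2 more often (0.633%, against 1.04%). Both shares are near the background, so the count is not a result about these genes. All 18 regions had the smallest p that the test allows, 0.0022, with an adjusted p of 0.0384. The 16 were called in all 12 other lists and in no KO list, and the 2 in all KO lists and no other. Without any 1 of the KO lists no region of any gene passed. With fewer KO lists the smallest p that the test allows is larger, so leaving 1 out cannot tell how firm these regions are. No region of any gene was called with an enrichment score at or above the median, with no filter on the number of lists, or with the replicate number as a block. With a stricter deposited q under 0.005, 7 member regions were called less often and 2 more often, against 529 and 129 of 12230 regions over all genes. In lists of equal length 7 and 5 were called, against 538 and 382 of 10864 over all genes.

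The 16 regions were listed under 12 genes, and their positions follow in build GRCm38. The one with the highest enrichment rank, a mean percentile of 91.4 ± 10.3 within its lists (SD, n = 12), lay in Ep300 at chr15:81651052-81651151, 926 nt before the gene end. Kat2a had 3 adjacent regions, 1 to 201 nt before the gene end, of which chr11:100704847-100704946 ranked highest. Sirt1 (chr10:63320506-63320605), Smarcad1 (chr6:65114384-65114483), Chd8 (chr14:52198452-52198551) and Mbd3 (chr10:80392740-80392839, also within Gm30823) lay 201 to 1578 nt before the end of their gene. Chd2 (chr7:73429239-73429338) and Arid1b (chr17:5342333-5342432) lay 2587 and 5224 nt before it. Those of Pbrm1 (chr14:31067539-31067638), Tet1 (chr10:62838171-62838270) and Ep400 (chr5:110755874-110755973) were in the interior, 33601 to 91501 nt from the end. The 3 regions listed under Trim28, of which chr7:13006015-13006114 ranked highest, lay outside it within Zbtb45.

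The 2 regions called in KO alone lay inside Chd1 at chr17:15761268-15761367, 11245 nt before the gene end, and inside Chd8 at chr14:52227552-52227651, 29401 nt before the end. Their mean percentiles were 37.3 ± 6.5 and 20.8 ± 9.67 (SD, n = 3). Chd8 thus held a region seen in all lists but KO at its very end and a region seen in KO only in its interior.

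Of the member regions called in all 3 WT lists, 131 of 163 (80.4%, exact Clopper-Pearson 95% interval 73.4% to 86.2%, for counting error only) were in no KO list, against 79.9% of all regions. The interval takes the regions as independent. The 131 lay in 34 members and many were adjacent, so it is too narrow. Of the same 163 regions, 21 (12.9%) were in all KO lists, against 9.64% of all. The KO+WT lists called 67.4 ± 3.84% of the 131 regions, KO+5RK lists 47.1 ± 3.18% and KO+13RK lists 33.1 ± 1.59% (SD, n = 3). The lists of the 3 lines did not overlap. For all genes the values were 62.2 ± 2.79%, 48.6 ± 6.08% and 36.7 ± 3.62%. All 9 lists with added METTL14 called 16 of the 131 regions (12.2%, against 12.8% for all genes), and 9 regions (6.87%, against 10.6%) were in none of them.

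**Figure D4:**
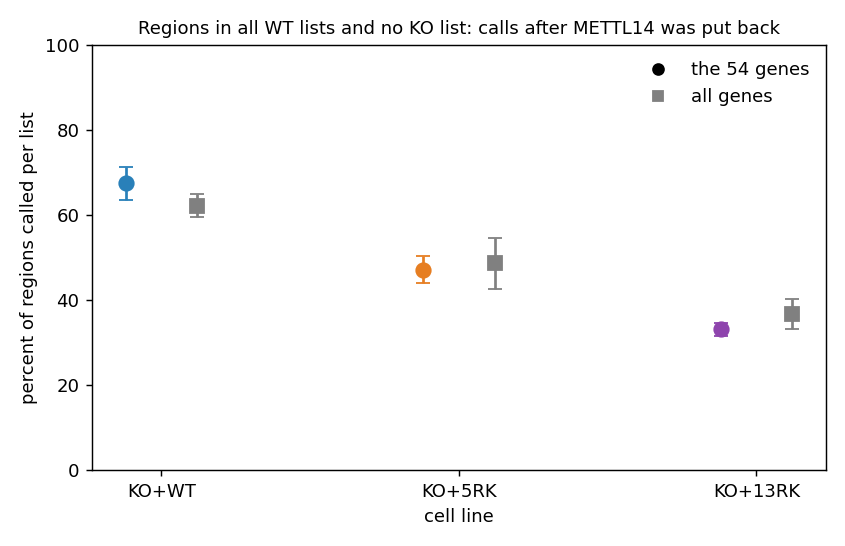
Percent called in lists with METTL14 put back, among the regions present in all WT lists and absent from KO, for the 54 genes (circles, 131 regions) and all genes (squares, 8744 regions), mean and SD of 3 lists. Values run from 67.4% in KO+WT to 33.1% in KO+13RK for the 54 genes, and from 62.2% to 36.7% for all genes.

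The families differed in what came back, as a description over few regions. Of the 34 acetyltransferase regions, KO+WT lists called 74.5 ± 4.49%, KO+5RK lists 43.1 ± 15.1% and KO+13RK lists 24.5 ± 3.4% (SD, n = 3). For the 20 of them outside Kat6b the values were 70 ± 8.66%, 55 ± 15% and 36.7 ± 5.77% in that order (SD, n = 3). The 30 CHD regions stood at 52.2 ± 6.94% in KO+WT and 52.2 ± 3.85% in KO+5RK, and at 27.8 ± 7.7% in KO+13RK. The 19 SWI/SNF regions stood at 68.4% in each KO+WT list and at 35.1 ± 8.04% and 35.1 ± 6.08% in the mutants. The 8 corepressor regions kept 66.7 ± 14.4% in KO+13RK, and they include the Trim28 regions over Zbtb45.

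Few whole genes were emptied. Hdac3, Mbd3 and Tet3 had a bin in all WT lists and none in KO, which is 3 of the 42 members called in all WT lists (7.14%, against 31.5% of all genes). The count was 8 without KO replicate 2 and 6 without KO replicate 3. These 3 genes each had a mean under 2 bins in WT, a class that holds 11.9% of those members and 29.3% of those genes. In it 3 of 5 members were emptied, against 664 of 1651 genes (40.2%). Of the members with 2 to under 4, 4 to under 8 and 8 or more WT bins (9, 15 and 13 genes) none was emptied, against 779 of 2423, 304 of 1297 and 28 of 260 genes. Between KO+WT and KO, Mbd3 and Tet3 were emptied (5.56%, against 25.7%), and no member was emptied in KO+5RK (percent called 2.80) or KO+13RK (percent called 7.19). Hdac3, Kat5 and Kat8 had a bin in every WT list and in no KO+WT list (7.14%, against 5.84%). No member went the other way, from no list to all 3, between WT and KO (percent called 4.89), KO+WT and KO (5.67), KO+WT and either KO+5RK (1.68) or KO+13RK (1.41), or WT and KO+WT (1.47).

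Counted by lists that did not overlap, 28 of 52 members had fewer bins in every KO list than in every WT list (53.8%, against 28.7% of all genes), and 1, Hdac6, had more (1.92%, against 1.24%). Against KO+WT, 19 of 52 members were lower in every KO list (36.5%, against 16.3%). From KO+WT to KO+5RK, 8 of 53 members were lower in every list (15.1%, against 3.50%), namely Arid1a, Arid1b, Chd2, Bptf, Smarcad1, Kat6b, Dnmt3l and Tet2. From KO+WT to KO+13RK, 14 of 52 were lower (26.9%, against 6.89%), and no member was higher in either mutant (against 0.829% and 0.609%). Between the parental line and the wild-type rescue, 14 of 53 members were lower in every KO+WT list (26.4%, against 9.78%), and Smarce1 and Hdac6 were higher (3.77%, against 0.887%). Set against KO, every KO+5RK list was lower for 4 of 52 members (7.69%, against 2.15%) and higher for 8 (15.4%, against 11.0%). Every KO+13RK list was lower than KO for 4 of 51 (7.84%, against 2.58%), namely Smarcc2, Chd4, Bptf and Kat6b, and higher for 5 (9.8%, against 8.01%), namely Ep400, Crebbp, Kat2a, Mbd3 and Trim28. Arid1a, Arid1b, Chd2, Kat6b and Tet2 were among the genes lower in both mutants, which share their KO+WT controls. These shares do not allow for the larger number of bins per member. They also count Trim28 with its bins outside the gene, and inside its own span Trim28 was separated in none of these comparisons.

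The 6 lists of both mutants were compared with the 6 lists that have wild-type METTL14 (WT and KO+WT), a contrast in which the mutations and other differences between lines cannot be told apart. No member passed the two-sided exact permutation test of bins per gene after adjustment over 9257 genes, and no gene did (percent called 0). The smallest adjusted p was 0.128, at an unadjusted 0.00216, and was shared by Arid1a, Arid1b, Chd2 and Kat6b. Kat6b had 5.5 ± 4.46 bins in the mutant lists and 27.3 ± 2.94 in the others (SD, n = 6), and Arid1b 2.83 ± 0.408 and 8.5 ± 2.51. At an unadjusted p under 0.05, 20 of 52 members stood out (38.5%, against 15.1% of all genes), all with fewer bins in the mutants. In bins per list 41 of 52 members were lower in the mutants and 6 higher, and per 10000 bins 29 were lower and 23 higher.

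The gap between the shares was smaller or absent within classes of genes with a like number of bins. Among genes with a mean of 3 to under 6 bins, 12 of 18 members (66.7%, against 45.8% of 698 genes) had such a p, and among genes with 6 or more, 4 of 5 (80%, against 65.7% of 108). With 1 to under 3 bins it was 3 of 16 (18.8%, against 20.9%), and with under 1 bin 1 of 13 (7.69%, against 4.87%). In the first class the members had 36.2% fewer bins in KO+5RK than in KO+WT and 51.6% fewer in KO+13RK, against 24.4% and 35.8% over all genes of the class. Among genes with 1 to under 3 bins the 16 members had 11.9% and 27.7% fewer, against 20.6% and 34.0%. The 14 members with under 1 bin had the same number in KO+5RK as in KO+WT and 38.1% fewer in KO+13RK, against 14.8% and 29.0% fewer. With 6 or more bins, the 5 members had 42.1% and 61.1% fewer, against 10.7% and 35.2%, and Kat6b is one of them.

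Per region, the Fisher test of the same 6 and 6 lists called no member region of 294, and no region of 21832 (percent called 0). At an unadjusted p under 0.05 there were 32 member regions (10.9%, against 3.95%), all less often called in the mutants. From KO+WT to KO+5RK, 18 of 114 member regions went from all lists to none (15.8%, against 7.48% of all regions), and to KO+13RK 29 (25.4%, against 16.8%). None appeared in the reverse direction in either mutant (against 2.97% and 2.61%). Absent from both mutants were 13 of the 114 regions (11.4%, against 4.17%), of which 6 were in Kat6b, 2 in Chd2 and 1 each in Arid2, Hdac4, Hdac6, Kat7 and Tet1. A single gene with adjacent regions, Kat6b, thus made up a large part of the count of 13. It also made up a large part of the 32, the 18 and the 29 regions above. The shares without Kat6b were not computed, so these counts are not a result about the members as a group.

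Of these 13 regions, the one with the highest rank in KO+WT was in Hdac4, a signal-responsive deacetylase, at chr1:91932880-91932979, 4101 nt before the gene end. It was called in all WT and KO+WT lists, with a mean percentile of 73.0 and 79.6, and in no other list. The regions of Arid2 (chr15:96372519-96372618) and Hdac6 (chr X, 1505 nt before the gene end) had the same pattern. The Chd2 regions (chr7:73429639-73429738 and the next 100 nt) were called in 2 WT lists and all KO+WT lists. They lie close to the Chd2 region that was called in every list but KO. For KO+13RK alone, the regions of Smarcad1 at chr6:65074884-65074983 and of Kat6b at chr14:21670535-21670634 were also absent, with 1 and 2 calls in KO+5RK.

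The place of the bins within the genes differed in the knockout. Shares here are of the bins inside the RefSeq span of their gene. In WT lists 21.5 ± 0.678% of these member bins were within 2000 nt of the gene end, and 19.2 ± 2.89% of those of KO+WT lists (SD, n = 3). The KO+5RK share there was 22.0 ± 1.64% and the KO+13RK share 22.6 ± 3.56%. In KO it was 2.06 ± 0.233%, which is 2 bins in each list. Over all genes the share was 34.7 ± 0.419% in WT and 17 ± 1.41% in KO. Near the gene start, within 500 nt, lay 6.88 ± 1.17% of the member bins inside genes in KO and 1.65 ± 0.228% in WT, against 16.9 ± 0.921% and 4.56 ± 0.476% over all genes. In bins, this is 6.67 ± 0.577 in KO and 4.33 ± 0.577 in WT for the members, and near the end 2 in each KO list and 56.3 ± 2.08 in WT (SD, n = 3). The members together thus had a few more bins near the start in KO than in WT and far fewer near the end. The stretch of Hdac6 that begins 227 nt after its start lies partly in the first 500 nt. As a whole it had 5 bins in each KO list and 1, 0 and 0 in WT. The number near the start without Hdac6 was not computed.

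**Figure D5:**
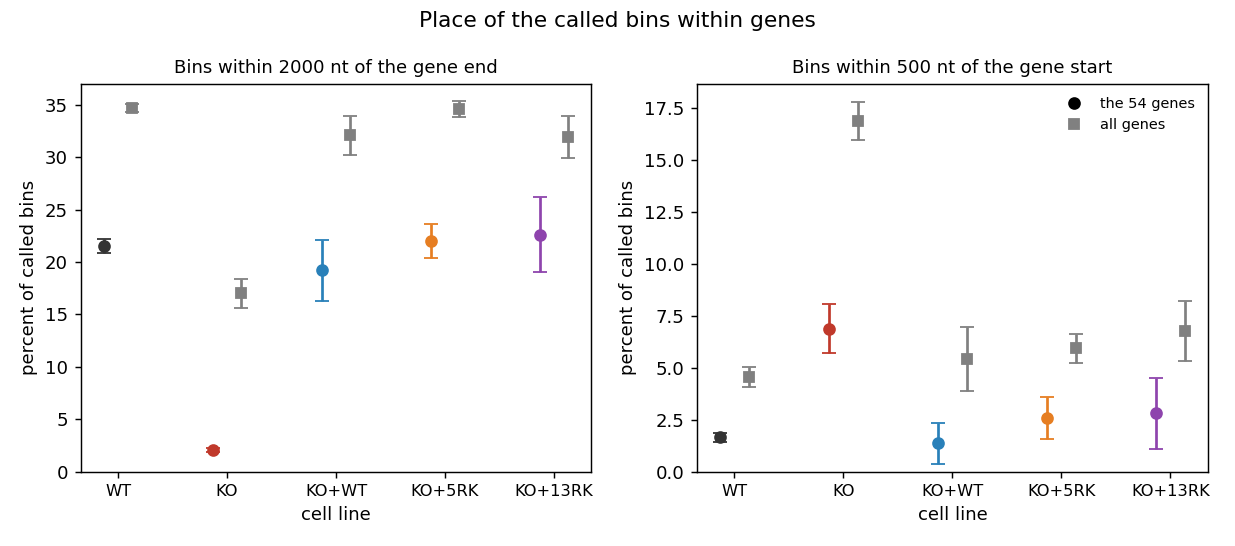
Percent of the called bins inside genes that lie within 2000 nt of the gene end (left) and within 500 nt of the gene start (right) by cell line, for the 54 genes (coloured circles) and all genes (grey squares), mean and SD of 3 lists. KO stands apart in both panels, with 2.06% near the end and 6.88% near the start for the 54 genes.

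Some regions were called whatever the state of METTL14. In 10 members, 11 of 616 regions (1.79%) were called in every one of the 15 lists, against 481 of 60022 (0.801%) over all genes. They were in Hdac2, Hdac4, Hdac5, Bptf, Kat6b, Hells, Chd6, Smarcc1 and Dnmt1, with a pair in Trim28. In Dnmt1 the region chr9:20929010-20929109 lay 21804 nt before the gene end, with a mean percentile of 58.1 ± 15.4 (SD, n = 15). In Bptf, a subunit of the NURF remodeller, chr11:107131382-107131481 lay 666 nt after the gene start. Of the 11 regions 1 was within 2000 nt of a gene end, against 8 of the 13 regions inside genes that were called less often in KO.

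A list of 90 other genes of the same complexes and pathways, such as further SWI/SNF subunits, Sin3 and NuRD partners and readers of methylated DNA, was set beside the 54. Of these, 86 had a bin. WT lists held 218.7 ± 8.62 of their bins, KO lists 65 ± 12.2 and KO+WT lists 158 ± 22.3 (SD, n = 3), and KO+5RK lists 120.3 ± 17.5 and KO+13RK lists 89.7 ± 23.2. In the region test, KO called 14 of 240 of their regions less often (5.83%, against 4.69% of all regions) and 2 more often (against 1.04%), again near the background. Per gene none of 78 passed, and none of all 9852 genes did. Of 45 genes in all WT lists, 15 (33.3%, against 31.5% of all genes) were in no KO list. That share is near the background too, so the count is not a result about these genes. Sap130, a Sin3 subunit, had 5, 6 and 6 bins in WT, none in KO, 2, 8 and 3 in KO+WT, 2, 2 and 3 in KO+5RK and 2 in each KO+13RK list. Uhrf2, a relative of Uhrf1, had 5, 4 and 4 bins in WT and none in KO, and 1 to 4 in the lists with added METTL14. Brpf3, a scaffold of acetyltransferase complexes, and Mbd4, a DNA glycosylase, also had bins in every list but those of KO.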

How the data were processed

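The 54 genes, the 90 other pathway genes and the tests were chosen with earlier results of these data known. Per the labels' protocols, fragmented messenger RNA was pulled down with an antibody to m6A, and libraries kept the strand. Per the submitters' processing notes the tools were kallisto 0.43.0 and STAR 2.5.3a and the build was GRCm38, without roles. No peak caller is named in these sources. Each of the 15 deposited lists, 1 per immunoprecipitated library, has no header. A row gives a bin of 100 nt, an Ensembl gene, an enrichment score of the authors whose scale is not stated, and the authors' deposited p-value and q-value, all q under 0.05. Read depth is unknown. Only the presence of a call was compared between lists, and the score was used to rank or filter within a list.

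Lists were assigned to samples by the line and replicate in their names. Bins overlapping by 1 nt on the same strand were merged, which turned 62091 distinct bins into 60022 regions. Symbols were found for 13730 of 13765 genes, and gene spans came from RefSeq (GRCm38.p6). Fisher and exact permutation tests (455 or 924 regroupings, Python 3.11.15 with scipy 1.17.1) ran over all regions or genes called in at least 3 lists, with Benjamini-Hochberg adjustment and a threshold of 0.05, and were tested on simulated calls. In the simulation an adjusted call depended on how many features reached the smallest p. Described with their values were 12 genes always, members with a region that passed the KO test, members emptied between lines, the 8 with most WT bins and, of the other pathway genes, the 4 with most WT bins among those called throughout WT and never in KO. All other genes, regions and stretches described were chosen after their values were seen. Alternatives were a stricter q, an enrichment score at or above the median, lists of equal length, unmerged bins, no filter, each list left out, the replicate number as a block, any bin per gene, calls in 2 lists more, and, added after bins of Chd1 and Trim28 were seen far away, only bins inside their gene.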

Additional observations from a re-analysis of the deposited data

How the results depend on the processing

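The lists give no read depth, so that a missing call in a shorter list cannot be told apart from a missing mark, and the order of the lines in bins per list holds for the lists as deposited. Member bins per list kept WT highest and KO+WT next with a deposited q under 0.005 (175.7 in WT, 49.3 for KO, 118.3 for KO+WT, 66.3 for KO+5RK, 49.7 for KO+13RK) and with an enrichment score at or above the median (114.7, 30, 72, 52.3 and 41 in that order of lines). In lists of equal length the values were 86.3 in WT, 94.3 for KO, 107.3 for KO+WT, 82.7 for KO+5RK and 77 for KO+13RK, so that WT was below KO and KO+WT. Inside gene spans they were 262.3 in WT, 98 for KO, 194 for KO+WT, 127.3 for KO+5RK and 96.7 for KO+13RK. Of the WT regions in no KO list, KO+5RK lists called 41.1% at the stricter q, 43.5% at the higher score and 60.6% at equal length, and KO+13RK lists 28.3% at the stricter q, 53.5% at equal length and 31.4% inside gene spans. KO+WT lists called 51.9% at the higher score and 82.8% at equal length, and the share of WT regions in no KO list was 90% and 71.7%.

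Regions called less often in KO numbered 7 at the stricter q, 0 at the higher score, 7 at equal length and 0 with no filter on the number of lists, and those called more often 0 at the higher score, 5 at equal length and 0 with no filter. Leaving out each list, they ran from 0 to 19 and from 0 to 4, with 0 and 0 without any 1 KO list and 4 more often without KO+WT replicate 2. Where a count of member regions is 0 here, no region of any gene was called, so these zeros are not particular to the members. With the replicate number as a block (replicate block) both counts were 0, since the smallest p is then 0.008. Same-numbered lists did not deviate together (r from -0.69 to 0.469, 9 of 30 pairs over 0.1), so no pairing by number was seen. Per gene no call was made with or without the block, so that setting cannot tell whether the lists are paired. Members with fewer and more bins in KO numbered 4 and 7 per 10000 bins and 0 and 1 at equal length, and 0 throughout when each list was left out.

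Members emptied from WT to KO numbered 11 at the stricter q, 0 at equal length and 12 by at least 2 lists more, and 3 to 8 with each list left out. From KO+WT to KO they were 6, 1 and 13, and 2 to 7. From WT to KO+WT they were 0 at the stricter q, 1 at the higher score and 0 at equal length, and 3 to 4. By at least 2 lists more, KO+5RK had 3 emptied members and KO+13RK 6, with 1 for KO+13RK at the higher score (0 to 1 and 0 to 2 with each list left out). Members filled from WT to KO numbered 4 at equal length and 1 by at least 2 lists more (0 to 1 with each list left out). From KO+WT to KO they were 1 at the higher score, 2 at equal length and 3 by at least 2 lists more (0 to 1), from KO+WT to KO+5RK 3 (0 to 1), and from WT to KO+WT 1 at equal length and 1 by at least 2 lists more (0 to 1). With each list left out, the shares of WT regions absent from KO that were called ran from 60.4% to 69.5% for KO+WT, 40% to 48.9% for KO+5RK and 28.2% to 34% for KO+13RK. The cause of these shifts was not tested beyond the shorter lists and fewer samples that the settings make.

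The difference of bins per gene, KO minus the 12 other lists, changed sign in some setting for 9 of the members described by rule. None of the 9 passed the test in bins per list, and Chd8 alone passed it per 10000 bins. Arid1b, Pbrm1 and Chd8 did have single regions that passed the region test. Over all 52 members tested, 13 changed sign per 10000 bins, each from lower to higher in KO, and in the mutants against the lists with wild-type METTL14 12 did so. At the stricter q it was 0.667 for Chd8, 0.417 for Dnmt3b and -0.333 for Uhrf1. At the higher score it was 0.0833 for Dnmt1 and 0.0833 for Dnmt3a, 1 for Dnmt3b and 0.417 for Kat6b. At equal length it was 0.583 for Arid1b, 1 for Chd4, 1.75 for Chd8, 0.667 for Dnmt1, 0.833 for Dnmt3b and 3.67 for Kat6b. Per 10000 bins it was 0.452 for Arid1b, 0.479 for Chd4, 2.63 for Chd8, 1 for Dnmt1, 0.263 for Dnmt3a, 0.734 for Dnmt3b, 8.67 for Kat6b and 0.392 for Pbrm1. For Dnmt3a it ran from -0.917 to 0.0833 when each list was left out, and was above 0 without KO replicate 1 alone.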
